A study of Rattus norvegicus with 20 samples.

Results

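The genes described here are 10 enzymes of sphingolipid and ceramide metabolism, measured in the liver of male rats. They were chosen by gene symbol from the 32883 genes of the expression table, as Sptlc1, Sptlc2, Cers2, Cers5, Cers6, Degs1, Sgms1, Smpd1, Asah1 and Ugcg. All 10 were found, and all 10 passed the filter on low values, a scaled value of at least 0.5 in at least 5 libraries. RNA was sequenced from 20 rats, 5 in each of 4 groups. KYDS+BGZ_L rats received hydrocortisone at 25 mg/kg together with 0.9 g/kg of BGZ_L powder, which the title links to Psoraleae Fructus. KYDS rats received hydrocortisone alone at 25 mg/kg, the glucocorticoid treatment that stands for kidney-yang deficiency syndrome in these animals. BGZ_L rats received the powder alone at 0.9 g/kg, and CON rats received the carrier, 0.5% CMC-Na. Rat strain, age, length of treatment and time of sampling are not stated in the labels, and the comparisons ask how hydrocortisone, the powder and their combination altered the liver transcriptome.

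Sphingolipids are membrane lipids built on a sphingoid base, and ceramide is their common intermediate. Ceramide is made in the endoplasmic reticulum, starting with the condensation of serine and palmitoyl-CoA, and is then turned into sphingomyelin or glucosylceramide, or broken down to sphingosine. The liver makes ceramides for its own membranes and for lipoproteins, and the very long acyl chains common in liver ceramides are attached mainly by the synthase encoded by Cers2. Glucocorticoids are known to alter hepatic lipid metabolism.

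Values were read as TPM, a measure of transcript abundance scaled for transcript length, and were scaled between libraries. The deposited values summed to between 914343 and 983962 per library, and TPM keeps no read totals, so the depth is unknown and no counting interval can be given. The 13 mitochondrially encoded genes held very different shares of the libraries, 48.9% ± 17.7 in KYDS+BGZ_L, 42.4% ± 18.0 in KYDS, 67.3% ± 17.3 in BGZ_L and 75.1% ± 10.2 in CON (SD, n = 5 each). The lowest share was 19.2%, in KYDS 3, and the highest 90.1%, in CON 2. All 7 hepatocyte markers (Alb, Ttr, Apoa1, Serpina1, Tf, Apoh and Cps1) were above 0 in every library. Their summed level had a median of 23116 scaled TPM in KYDS+BGZ_L (8976 to 44193) and 16673 in KYDS (6246 to 61918), against 5602 in BGZ_L (5354 to 6551) and 6740 in CON (5445 to 9360). Of these markers 4 of 7 passed, higher, in KYDS+BGZ_L against BGZ_L and 1 of 7 in KYDS against CON, as did 1 of 6 Kupffer cell markers in each. Of all tested genes 8.02% passed, higher, in the first of these comparisons and 2.45% in the second. Between KYDS+BGZ_L and BGZ_L livers the mean of the Kupffer cell marker Cd163 was higher, 20.2 against 7.54 scaled TPM. The means of the others, Clec4f, Marco, Vsig4, Cd68 and Cd5l, were lower. The Kupffer list had a median sum of 59.5 in KYDS+BGZ_L (38.4 to 125) and 51.5 in BGZ_L livers (31.6 to 406). Of 5 neutrophil markers the 2 tested, S100a8 and S100a9, passed, higher, in KYDS+BGZ_L against BGZ_L. The list summed to 6.88 to 27.2 scaled TPM in KYDS+BGZ_L and 0 to 21.2 in BGZ_L livers. Mpo, Elane and Camp were too low to be tested. Their means were 0.0726, 0.0608 and 0.101 in KYDS+BGZ_L, slightly below the 0.104, 0.0764 and 0.106 in BGZ_L livers. In both comparisons no endothelial (4 tested), stellate (6), cholangiocyte (5), erythroid (4) or lymphocyte (2) marker passed. The mean mitochondrial share was lower and the median hepatocyte sum higher in the groups given hydrocortisone. The shares overlapped in both comparisons, and the sums overlapped between KYDS and CON but not between KYDS+BGZ_L and BGZ_L. The part of either in the results below was not tested except where a value is given. In whole liver, fewer cells of a type and less RNA per cell cannot be told apart.

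Hydrocortisone was accompanied by higher RNA of the ceramide synthase Cers2 and of the acid sphingomyelinase Smpd1, by 2.71-fold to 3.18-fold, in rats with and without BGZ_L powder. In rats that also received the powder, the desaturase Degs1 was higher and the sphingomyelin synthase Sgms1 was lower with hydrocortisone. In KYDS against CON livers, 2 of the 10 genes passed (limma, adjusted p under 0.05 over 11860 genes), both higher, where 5.67% of all tested genes passed, 2.45% higher and 3.22% lower. In KYDS+BGZ_L against BGZ_L livers, 4 of the 10 passed, 3 higher and 1 lower, where 17.1% of all tested genes passed, 8.02% higher and 9.11% lower. The median log2 fold change of the 10 genes was 0.15 in KYDS against CON, beside -0.01 for all tested genes, and 0.35 in KYDS+BGZ_L against BGZ_L, beside 0.01. None of the 10 passed in KYDS+BGZ_L against KYDS (0.118% of all tested genes passed), in BGZ_L against CON (0%) or in the interaction of both treatments (0.0253%).

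**Figure D1:**
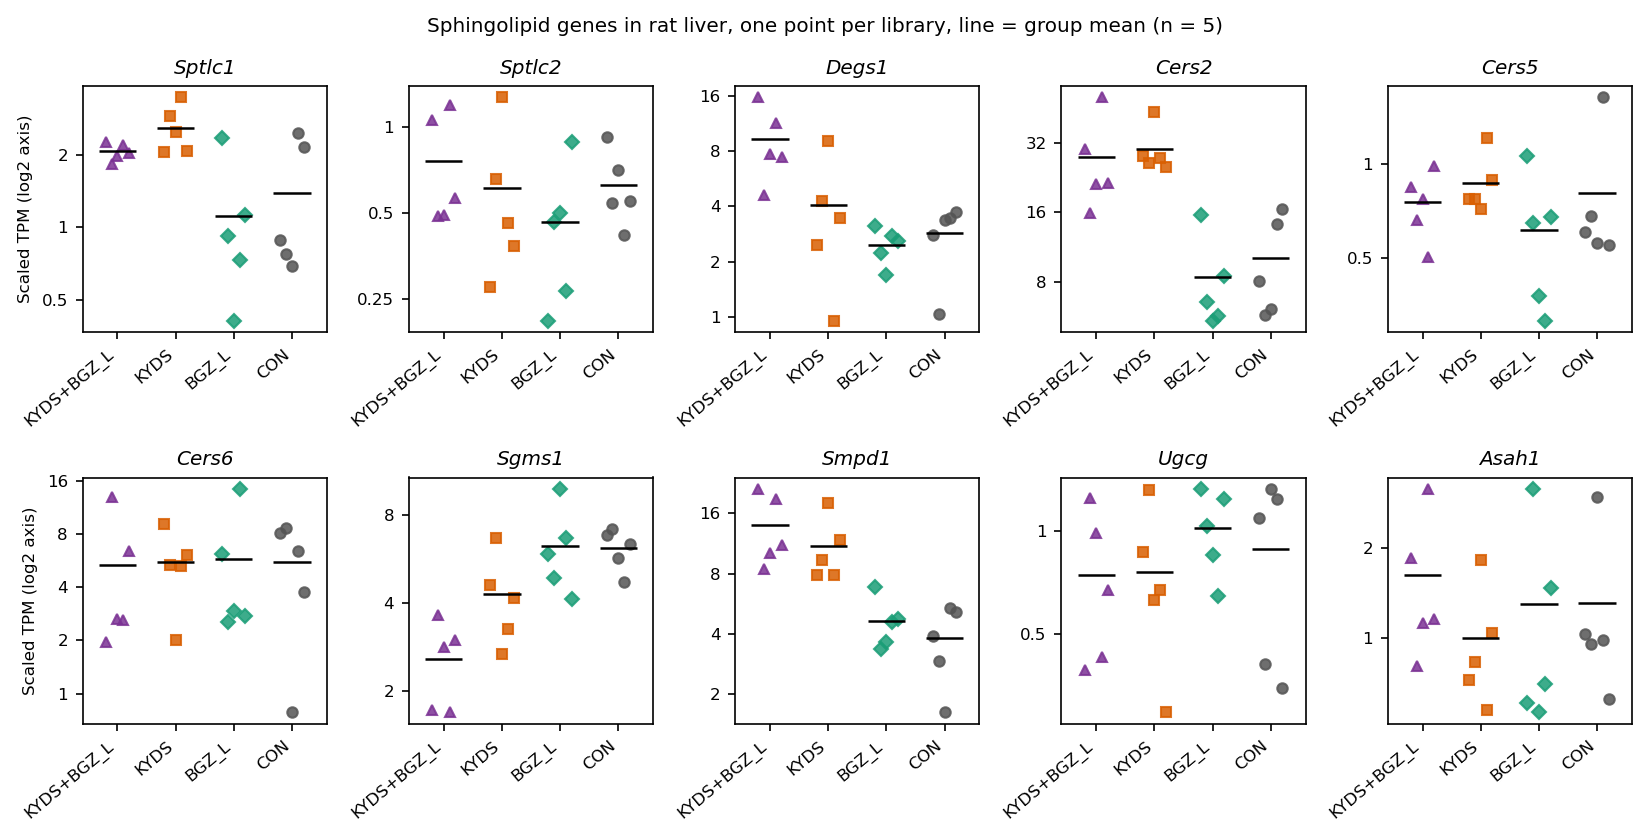
Scaled TPM (log2 axis) of the 10 genes, 1 panel per gene and 1 point per library, with KYDS+BGZ_L, KYDS, BGZ_L and CON from left to right and a line at the group mean (n = 5). Cers2 and Smpd1 lie higher in both groups given hydrocortisone without overlap with their own controls, Degs1 is highest and Sgms1 lowest in KYDS+BGZ_L.

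The 10 genes spanned a wide range of levels. Cers2 had the highest mean over the 20 libraries, 19.1 scaled TPM, and was followed by Smpd1 at 8.35. Cers6 (5.55), Sgms1 (4.82) and Degs1 (4.69) lay close to one another, within the spread of their groups. Sptlc1 averaged 1.80 and Asah1 1.31 scaled TPM. Ugcg (0.850), Cers5 (0.763) and Sptlc2 (0.617) were near the filter limit, where the added constant of 0.5 makes log2 fold changes understate differences.

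The upstream sequences of the 4 genes whose differences passed a test are shown beside the values described below. Each is the 250 bases before the annotated gene start on the strand of the gene, 5′ to 3′, from RefSeq with the build GRCr8. Cers2 lies at chr2:185579261-185579510 (plus strand), Smpd1 at chr1:169304522-169304771 (plus strand), Degs1 at chr13:96485303-96485552 (minus strand) and Sgms1 at chr1:239672894-239673143 (minus strand). Both strands were searched for 5 motifs, and capitals mark the matches. The GC box was GGGCGG. The CCAAT box was searched by the letters of its name. The E-box was spelled CACGTG. The TATA box was spelled TATAAA, and the half-site of the glucocorticoid receptor AGAACA.
Cers2: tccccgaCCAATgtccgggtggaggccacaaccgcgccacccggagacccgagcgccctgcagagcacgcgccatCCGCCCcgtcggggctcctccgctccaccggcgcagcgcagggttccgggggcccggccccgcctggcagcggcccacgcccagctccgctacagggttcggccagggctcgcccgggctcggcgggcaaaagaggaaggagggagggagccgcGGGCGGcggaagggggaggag
Smpd1: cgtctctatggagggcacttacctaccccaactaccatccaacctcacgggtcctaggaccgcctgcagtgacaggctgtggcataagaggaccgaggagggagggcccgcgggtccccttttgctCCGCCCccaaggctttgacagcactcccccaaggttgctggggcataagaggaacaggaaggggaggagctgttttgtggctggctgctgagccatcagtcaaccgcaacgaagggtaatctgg
Degs1: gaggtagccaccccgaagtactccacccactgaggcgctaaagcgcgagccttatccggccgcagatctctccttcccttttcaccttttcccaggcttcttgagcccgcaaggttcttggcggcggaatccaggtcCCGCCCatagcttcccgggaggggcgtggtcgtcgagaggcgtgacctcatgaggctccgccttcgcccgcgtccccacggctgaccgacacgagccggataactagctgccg
Sgms1: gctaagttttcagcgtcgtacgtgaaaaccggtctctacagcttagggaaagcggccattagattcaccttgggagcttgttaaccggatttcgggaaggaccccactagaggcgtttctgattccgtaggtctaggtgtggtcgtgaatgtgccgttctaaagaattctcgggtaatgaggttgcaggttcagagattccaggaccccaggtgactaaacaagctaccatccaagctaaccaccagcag
Cers2 held a CCAAT box and a pair of GC boxes in a window of 77.2% G and C. Smpd1 (60.4%) and Degs1 (64.4%) held 1 GC box each, and Sgms1 (50.4%) held none of the 5 motifs. Among the 8 genes of the set found in the promoter table, which are all but Asah1 and Ugcg, 6 held a GC box and 3 a CCAAT box. Of all 33469 promoters of the same length, 30.5% held a GC box and 34% a CCAAT box. The half-site was in 17.5% of all promoters and in 0 of these 8, the E-box in 5.59% and in 1 (Cers6), and the TATA box in 12.9% and in 0. A match is a description of the letters only, and a missing match says only that these letters are not in this window.

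Sptlc1 and Sptlc2 encode the 2 subunits of the catalytic core of serine palmitoyltransferase, the enzyme that starts sphingolipid synthesis. Sptlc1 stood at 1.84 to 2.28 scaled TPM in KYDS+BGZ_L livers, against 0.408 to 2.37 in BGZ_L livers. It stood at 2.06 to 3.49 in KYDS livers, against 0.692 to 2.48 in CON livers. Both pairs of groups overlapped, and neither difference passed in limma, with log2 fold changes of 0.78 ± 0.30 (SE; limma adjusted p = 0.0736) and 0.80 ± 0.30 (0.107). The unadjusted p values were 0.0156 and 0.0134. Sptlc2 had a mean of 0.760 ± 0.340 scaled TPM in KYDS+BGZ_L and 0.466 ± 0.267 in BGZ_L livers, and of 0.611 ± 0.397 in KYDS and 0.630 ± 0.195 in CON livers (SD, n = 5 each). Its log2 fold changes were 0.38 ± 0.25 (limma adjusted p = 0.309) and -0.07 ± 0.25 (0.891).

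Cers2 encodes the ceramide synthase that attaches very long acyl chains. Its values were 30.0, 15.9, 21.2, 50.5 and 21.3 scaled TPM in KYDS+BGZ_L livers, against 15.6, 6.53, 5.39, 5.67 and 8.49 in BGZ_L livers. They were 28.1, 26.1, 43.7, 27.5 and 25.2 in KYDS livers, against 8.06, 5.72, 6.08, 14.2 and 16.6 in CON livers. Every library given hydrocortisone was above every library of its own control group, although the lowest KYDS+BGZ_L value and the highest BGZ_L value nearly touched. Cers2 rose by 1.67 ± 0.35 on the log2 scale in KYDS+BGZ_L against BGZ_L (SE; limma adjusted p = 0.00485), 3.18-fold. It rose by 1.62 ± 0.35 in KYDS against CON (limma adjusted p = 0.0157), 3.08-fold. Both differences passed in each of the 20 fits that left out 1 library, with ranges of 1.43 to 1.91 and 1.46 to 1.83. The highest limma adjusted p values were 0.0194, without KYDS+BGZ_L 4, and 0.0475, without CON 2. With a covariate for the mitochondrial signal of each library (the ratio of nuclear to mitochondrial TPM, on the log2 scale), the difference between KYDS and CON was 0.80 ± 0.35 and did not pass (limma adjusted p = 0.632), while that between KYDS+BGZ_L and BGZ_L passed at 1.22 ± 0.30 (0.0227). In the RefSeq annotation of GRCr8 Cers2 overlaps Setdb1, a histone methyltransferase gene, and reads in the shared stretch may have been given to either. Setdb1 differed by 0.62 ± 0.35 (limma adjusted p = 0.226) and 0.63 ± 0.35 (0.276) in the same comparisons, and neither passed. Sptlc2, Cers6 and Degs1 each overlap genes with provisional names there.

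Cers5 and Cers6 encode synthases that prefer long, chiefly palmitoyl, chains. Neither passed in any comparison. Cers6 ranged from 1.96 to 12.9 scaled TPM in KYDS+BGZ_L and from 2.55 to 14.5 in BGZ_L livers, with a log2 fold change of -0.12 ± 0.58 (limma adjusted p = 0.91). It ranged from 2.02 to 9.07 in KYDS and from 0.782 to 8.62 in CON livers, with a log2 fold change of 0.17 ± 0.58 (0.887). The 95% intervals of these differences, -1.32 to 1.08 and -1.03 to 1.38, hold changes of more than 2-fold either way. Cers5 averaged 0.755 ± 0.183 scaled TPM in KYDS+BGZ_L and 0.616 ± 0.30 in BGZ_L livers, a log2 fold change of 0.20 ± 0.23 (limma adjusted p = 0.59). It averaged 0.873 ± 0.202 in KYDS and 0.809 ± 0.473 in CON livers, a log2 fold change of 0.12 ± 0.23 (0.789).

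The mean share of Cers2 in the synthase RNA was higher with hydrocortisone. This share was not tested, and the ratio of Cers6 to Cers2, tested below, did not pass. Cers2 took 80.0% ± 16.5 of the summed Cers2, Cers5 and Cers6 TPM in KYDS+BGZ_L and 59.3% ± 17.9 in BGZ_L livers, and 81.7% ± 7.5 in KYDS and 62.3% ± 19.2 in CON livers (SD, n = 5 each). The ranges overlapped, 53.8% to 94.2% against 27.7% to 71.2%, and 74.0% to 94.1% against 38.1% to 81.9%. Cers6 took most of the remainder, 17.6%, 15.9%, 36.2% and 32.6% on average in KYDS+BGZ_L, KYDS, BGZ_L and CON livers. The share of Cers2 also depended on Cers6. It was 81.9% in CON 3, where Cers6 stood at 0.782 scaled TPM, and 27.7% in BGZ_L 4, where Cers6 stood at 14.5.

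Degs1 encodes the dihydroceramide desaturase that completes ceramide. Its values were 15.7, 4.64, 7.68, 11.4 and 7.39 scaled TPM in KYDS+BGZ_L livers, against 3.12, 2.24, 1.69, 2.75 and 2.60 in BGZ_L livers. They were 2.47, 4.29, 9.09, 0.952 and 3.44 in KYDS livers, against 2.80, 1.04, 3.38, 3.44 and 3.75 in CON livers. All 5 KYDS+BGZ_L libraries lay above all 5 BGZ_L libraries, whereas the KYDS libraries straddled the CON libraries. Degs1 rose by 1.64 ± 0.41 in KYDS+BGZ_L against BGZ_L on the log2 scale (SE; limma adjusted p = 0.011), and the difference between KYDS and CON was 0.25 ± 0.41 (0.749). The test of the difference between these responses gave 1.39 ± 0.58, with an unadjusted p of 0.0256 and a limma adjusted p of 1. Between KYDS+BGZ_L and KYDS livers Degs1 differed by 1.27 ± 0.41, with an unadjusted p of 0.00543 and a limma adjusted p of 0.638. Degs1 thus passed in 1 comparison, and its response was not shown to differ with the powder.

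**Figure D2:**
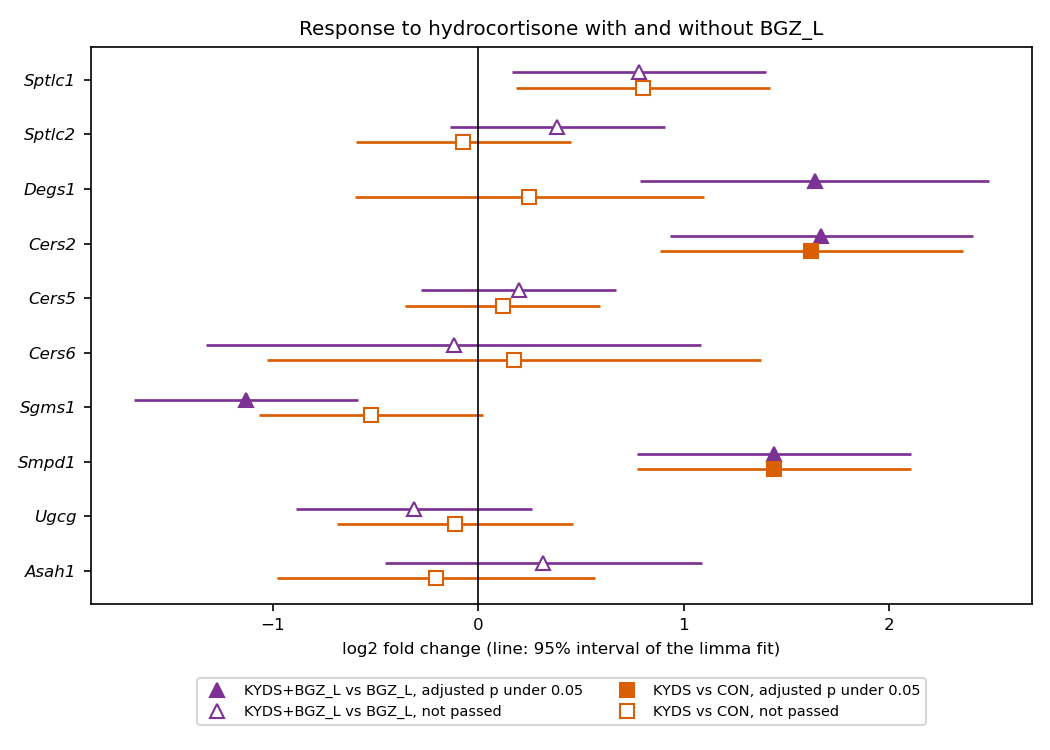
Log2 fold changes of the 10 genes for KYDS+BGZ_L against BGZ_L (triangles) and KYDS against CON (squares), with 95% intervals from the limma fit and filled symbols for adjusted p under 0.05. Cers2 and Smpd1 lie near the same value in both comparisons, 1.67 and 1.62 for Cers2, whereas Degs1 is at 1.64 in the first and 0.25 in the second.

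Sgms1 encodes the Golgi sphingomyelin synthase, which moves the phosphocholine head group onto ceramide. Its values were 1.72, 3.65, 2.82, 1.68 and 2.99 scaled TPM in KYDS+BGZ_L livers, against 5.89, 4.86, 9.85, 6.70 and 4.12 in BGZ_L livers. They were 4.60, 6.69, 2.67, 3.26 and 4.14 in KYDS livers, against 6.82, 7.17, 5.70, 4.72 and 6.36 in CON livers. The KYDS+BGZ_L and BGZ_L libraries did not overlap, and KYDS 2 lay among the CON libraries. Sgms1 fell by 1.13 ± 0.26 on the log2 scale in KYDS+BGZ_L against BGZ_L (SE; limma adjusted p = 0.00739), 2.19-fold. Between KYDS and CON livers its difference of -0.52 ± 0.26 did not pass (limma adjusted p = 0.232). The interaction was -0.61 ± 0.37 (limma adjusted p = 1), and between KYDS+BGZ_L and KYDS livers the difference was -0.63 ± 0.26, with an unadjusted p of 0.0265 and a limma adjusted p of 1. The direction of Sgms1 depended on the scaling in KYDS against CON, where the unscaled values gave 0.77. In KYDS+BGZ_L against BGZ_L the unscaled values gave -0.35 (limma adjusted p = 0.56), while the median of all tested genes stood at 0.63.

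Smpd1 encodes acid sphingomyelinase, the lysosomal and secreted enzyme that releases ceramide from sphingomyelin. Its values were 21.3, 8.46, 10.1, 18.8 and 11.2 scaled TPM in KYDS+BGZ_L livers, against 6.85, 3.38, 3.64, 4.62 and 4.76 in BGZ_L livers. They were 7.85, 9.42, 18.0, 7.90 and 11.8 in KYDS livers, against 3.90, 2.95, 1.62, 5.37 and 5.18 in CON livers. Neither pair of groups overlapped, with KYDS 3 and KYDS+BGZ_L 1 and 4 the highest libraries. Smpd1 rose by 1.44 ± 0.32 on the log2 scale in both comparisons, 2.71-fold, with a limma adjusted p of 0.00625 for KYDS+BGZ_L against BGZ_L and of 0.017 for KYDS against CON. Without KYDS 3 the rise in KYDS against CON was 1.25 and no longer passed (limma adjusted p = 0.052). With values taken relative to the nuclear signal it was 1.67, again without passing (0.0628), and with the mitochondrial covariate it was 0.61 ± 0.29 (0.677). In all, the scaled values of 2 of the 10 genes did not overlap upward and 0 downward in KYDS against CON, beside 2.76% and 3.49% of all tested genes. In KYDS+BGZ_L against BGZ_L 3 did not overlap upward and 1 downward, beside 6.65% and 6.49%.

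Asah1, the acid ceramidase that splits ceramide into sphingosine and fatty acid, and Ugcg, the glucosylceramide synthase that opens the glycosphingolipid branch, passed in no comparison. Asah1 averaged 1.62 ± 0.94 scaled TPM in KYDS+BGZ_L and 1.29 ± 1.09 in BGZ_L livers, a log2 fold change of 0.32 ± 0.37 (SE; limma adjusted p = 0.594). It averaged 1.00 ± 0.49 in KYDS and 1.31 ± 0.93 in CON livers, a log2 fold change of -0.21 ± 0.37 (0.771). Ugcg averaged 0.745 ± 0.367 in KYDS+BGZ_L and 1.02 ± 0.28 in BGZ_L livers, a log2 fold change of -0.31 ± 0.28 (limma adjusted p = 0.464). It averaged 0.757 ± 0.374 in KYDS and 0.882 ± 0.467 in CON livers, a log2 fold change of -0.11 ± 0.28 (0.839). The 95% intervals ran from -0.46 to 1.09 and from -0.98 to 0.57 for Asah1, and from -0.89 to 0.26 and from -0.69 to 0.46 for Ugcg.

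Ratios of 2 of the 10 genes within a library, on the log2(scaled TPM + 0.5) scale, compare genes with little dependence on scaling. The 6 ratios were compared between 4 pairs of groups by exact two-sided permutation tests, 24 in all, whose smallest possible p with 5 against 5 libraries is 0.00794. The ratio of Smpd1 to Sgms1, sphingomyelin breakdown over its synthesis, was 3.30, 1.11, 1.68, 3.14 and 1.74 in KYDS+BGZ_L livers, against 0.20, -0.47, -1.32, -0.49 and 0.19 in BGZ_L livers. It was 0.71, 0.46, 2.54, 1.16 and 1.40 in KYDS livers, against -0.73, -1.15, -1.55, 0.17 and -0.27 in CON livers. All 10 libraries given hydrocortisone were above 0 and above all 10 others, of which the highest stood at 0.20. The differences were 2.57 in KYDS+BGZ_L against BGZ_L and 1.96 in KYDS against CON, each with an exact p of 0.00794 and an adjusted p of 0.0476 over the 24 tests. Both members of this ratio were also tested singly above, so the ratio is not separate evidence.

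The ratio of Cers5 to Cers2 was -4.51, -3.82, -4.09, -5.67 and -3.88 in KYDS+BGZ_L livers, against -3.36, -2.62, -2.75, -2.93 and -2.93 in BGZ_L livers. It was -4.49, -4.39, -5.18, -4.03 and -4.21 in KYDS livers, against -2.95, -2.40, -2.64, -2.77 and -4.02 in CON livers. Neither pair of groups overlapped, though KYDS 4 and CON 5 lay almost level. The differences were -1.47 and -1.50 (exact p = 0.00794 and adjusted p = 0.0476 each). Cers2 was also tested singly above, and Cers5 passed in neither comparison, so this ratio is not separate evidence either. The other ratios, Cers6 to Cers2, Sptlc1 to Sptlc2, Ugcg to Sgms1 and Asah1 to Degs1, passed in no comparison. The closest were Ugcg to Sgms1, higher by 0.82 in KYDS+BGZ_L against BGZ_L and by 0.61 in KYDS+BGZ_L against KYDS, and Asah1 to Degs1, with a difference of -1.32 in KYDS+BGZ_L against BGZ_L (exact p = 0.0159 and adjusted p = 0.0545 for each of the 3). With 5 libraries a group the 4 passing differences sit at the smallest p the design allows, and with a constant of 0.1 in place of 0.5 none passed (adjusted p = 0.0635 to 0.0952). All 4 were also lost when any 1 of CON 3, BGZ_L 3 or KYDS 1, 2, 4 and 5 was left out (adjusted p up to 0.0635).

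**Figure D3:**
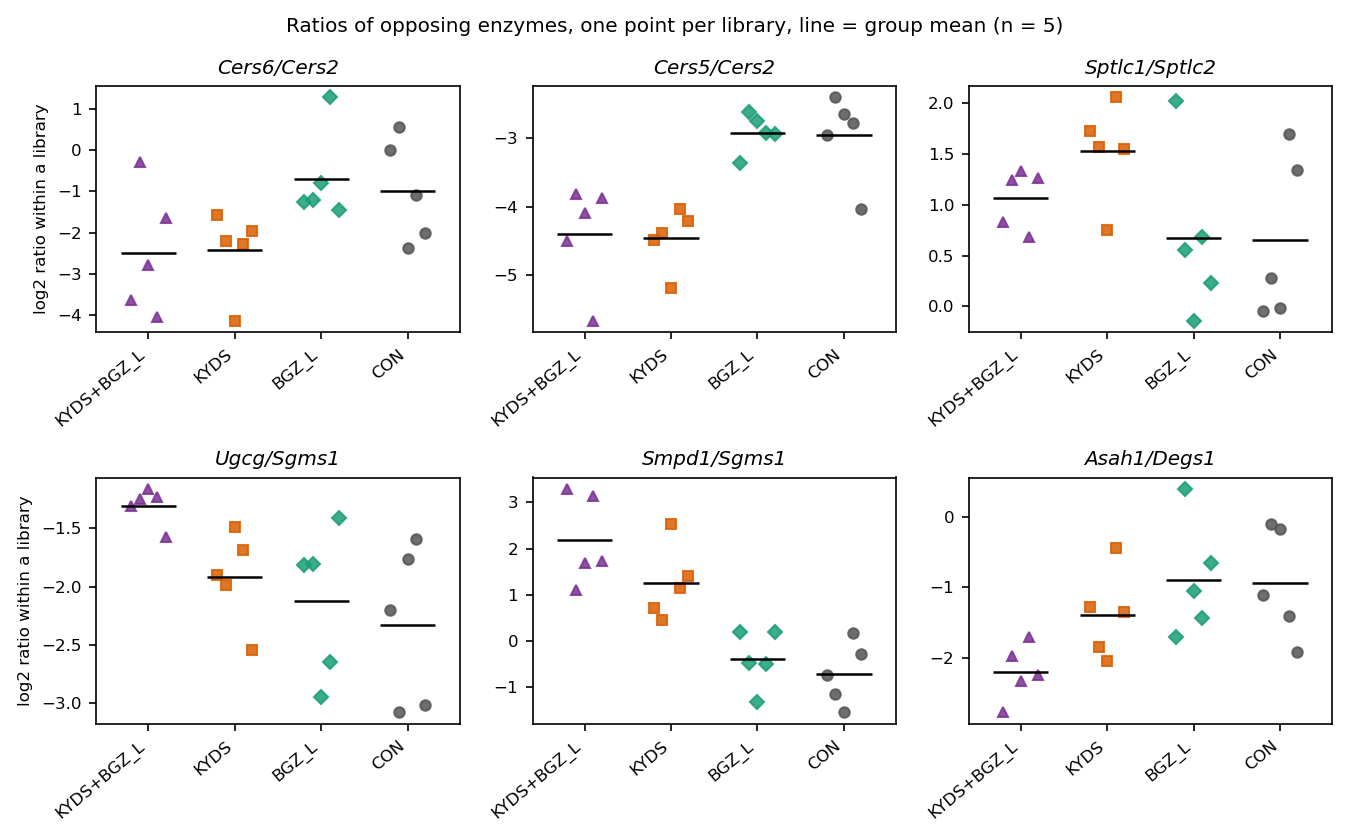
Log2 ratios of 2 enzymes within each library, 1 point per library and a line at the group mean (n = 5), with KYDS+BGZ_L, KYDS, BGZ_L and CON from left to right. Smpd1/Sgms1 lies above 0.46 in every library given hydrocortisone and at or below 0.20 in all others, and Cers5/Cers2 lies lower in both groups given hydrocortisone.

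None of the 10 genes passed with BGZ_L powder alone. In BGZ_L against CON livers the log2 fold changes ran from -0.25 for Sptlc2 to 0.31 for Smpd1, and none of the 10 had an unadjusted p under 0.05, while 730 of all 11860 genes did and none passed the adjustment (limma). Cers2 differed by -0.25 ± 0.35 (SE; limma adjusted p = 0.917), with a 95% interval of -0.99 to 0.49. Added to hydrocortisone, the powder gave an unadjusted p under 0.05 for 2 of the 10, Degs1 and Sgms1 as given above, and for 413 of all genes, of which 14 passed. Cers2 differed by -0.20 ± 0.35 between KYDS+BGZ_L and KYDS livers (95% interval -0.94 to 0.54), and Smpd1 by 0.31 ± 0.32 (-0.35 to 0.98), with limma adjusted p values of 1. These intervals do not show that the groups were alike. For the interaction 1 of the 10, Degs1, had an unadjusted p under 0.05, as did 456 of all genes, of which 3 passed.

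Within groups, libraries with a lower mitochondrially encoded share held more Degs1, Smpd1 and Cers2, while Sgms1 went the other way and less closely. Within groups, the log2 ratio of nuclear to mitochondrial signal correlated with Degs1 at r = 0.851, with Smpd1 at 0.798, with Cers2 at 0.707 and with Sgms1 at -0.409 over the 20 libraries, whose values share scaling, and the other 6 genes lay between -0.155 and 0.397. KYDS 4, the KYDS library with the highest share at 68.9%, held 27.5 scaled TPM of Cers2, and the CON libraries at 65.6%, 68.5% and 70.3% held 8.06, 14.2 and 16.6. At the same shares KYDS 4 held 7.90 scaled TPM of Smpd1, against 3.90, 5.37 and 5.18 in those CON libraries, but 0.952 of Degs1, against 2.80, 3.44 and 3.75. KYDS+BGZ_L 2, at 70.2%, held 15.9 scaled TPM of Cers2 and 8.46 of Smpd1. For Cers2 that is below the 16.6 of CON 5 at 70.3%, and above the 5.67 and 6.53 of the BGZ_L libraries at 61.8% and 74.3%. BGZ_L 1 had the lowest share without hydrocortisone, 39.6%, and held 15.6 of Cers2, 6.85 of Smpd1 and 3.12 of Degs1. KYDS 1, at 43.2%, held 28.1, 7.85 and 2.47 of these genes, and KYDS+BGZ_L 4, at 35.1%, held 50.5, 18.8 and 11.4. With the ratio as a covariate, none of the 10 genes passed in KYDS against CON. The values of Cers2 and Smpd1 in that fit are given above. Of the tested genes as a whole 15 passed in that fit, in place of 672. In KYDS+BGZ_L against BGZ_L the same 4 genes passed with the covariate, beside 655 of all tested genes in place of 2031. Beside Cers2, Smpd1 stood at 0.98 ± 0.24 (limma adjusted p = 0.0244), Degs1 at 0.99 ± 0.27 (0.038) and Sgms1 at -0.95 ± 0.27 (0.0459). Degs1 also passed with the covariate in KYDS+BGZ_L against KYDS, at 1.49 ± 0.25 (limma adjusted p = 0.0105). There 23 of all tested genes passed, in place of 14. The covariate itself differs between the groups, so its part and that of hydrocortisone cannot be fully told apart.

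**Figure D4:**
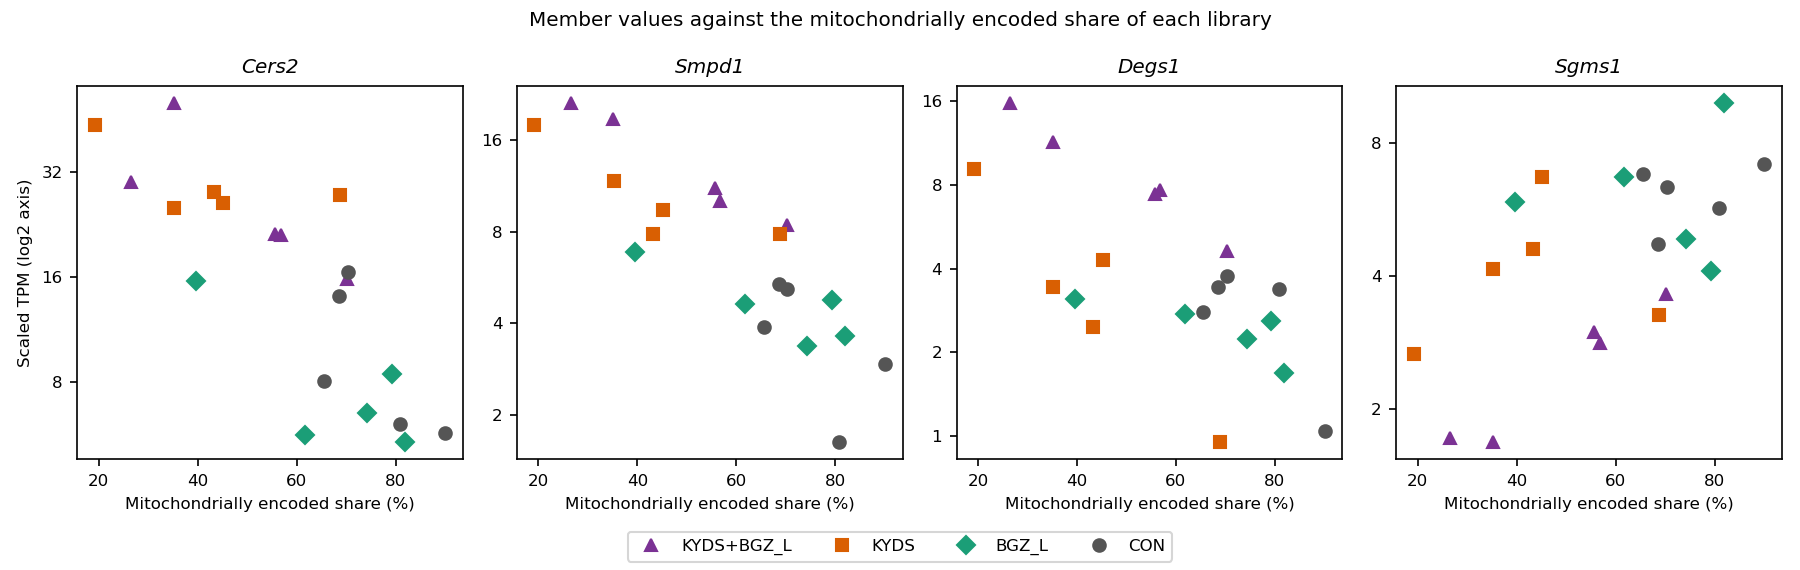
Scaled TPM (log2 axis) of Cers2, Smpd1, Degs1 and Sgms1 against the share of each library held by the 13 mitochondrially encoded genes, 1 point per library with a marker for each group. Libraries with a lower share held more Smpd1 and Degs1, and KYDS 4, at 68.9%, lies above the CON libraries of like share for Cers2 and Smpd1, whereas KYDS+BGZ_L 2, at 70.2%, lies below CON 5, at 70.3%, for Cers2. BGZ_L 1, at 39.6%, lies below KYDS 1, at 43.2%, for Cers2 and Smpd1 and above it for Degs1.

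Beyond the 10 enzymes, 63 other genes of the pathway were examined in 7 lists, and 47 passed the filter. In KYDS+BGZ_L against BGZ_L livers 11 of the 47 passed, 9 higher and 2 lower, and 36 did not, beside 17.1% of all tested genes. In KYDS against CON livers 1 passed, higher, and 46 did not, beside 5.67%. None passed in the other 3 comparisons, and neither of the 2 tested genes among the other ceramide synthases and desaturases passed in any. S1pr1, a receptor for sphingosine 1-phosphate on endothelial and immune cells, was the gene that passed in both. It ranged from 2.22 to 7.98 scaled TPM in KYDS+BGZ_L and from 0.491 to 1.38 in BGZ_L livers, a rise of 1.57 ± 0.30 on the log2 scale (SE; limma adjusted p = 0.00281). It ranged from 2.37 to 4.61 in KYDS and from 0.817 to 2.00 in CON livers, a rise of 1.17 ± 0.30 (limma adjusted p = 0.0289). Neither pair overlapped, and the second call was lost when CON 1, CON 2, KYDS 1, KYDS 3 or KYDS 5 was left out, 5 of 20 fits, up to an adjusted p of 0.0795 without KYDS 3. It was also lost with the mitochondrial ratio as a covariate (0.78 ± 0.36, limma adjusted p = 0.669), relative to nuclear signal (0.0835) and without CON 2 and BGZ_L 3 together (0.0724). The 4 endothelial markers in the table summed to medians of 42.7 scaled TPM in KYDS+BGZ_L, 41.0 in KYDS, 45.8 in BGZ_L and 45.8 in CON livers.

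The remaining calls lay in KYDS+BGZ_L against BGZ_L. Among the genes that act on sphingoid bases, Sphk2, a sphingosine kinase, rose by 1.23 (limma adjusted p = 0.0155) and Sgpl1, the lyase that ends the pathway, by 1.34 (0.0372) on the log2 scale. Sgpl1 had a like difference between KYDS and CON livers, 4.97 ± 2.85 against 1.69 ± 1.31 scaled TPM (SD, n = 5 each), that did not pass (limma adjusted p = 0.0644). Ormdl2, which encodes a regulatory partner of serine palmitoyltransferase, rose by 1.47 (0.0193), 1 of 4 tested in its list. Ormdl3 of the same list was lower, at 0.816 ± 0.376 against 3.29 ± 2.34 scaled TPM (SD), and did not pass (unadjusted limma p under 0.05). Samd8, a ceramide phosphoethanolamine synthase, rose by 0.55 (0.0344). Apom, the lipoprotein that carries sphingosine 1-phosphate in plasma, rose by 1.99 (0.0246), to 645 ± 239 scaled TPM in KYDS+BGZ_L, against 169 ± 80.9 in BGZ_L livers. The lysosomal hydrolases of glycosphingolipids that rose were Arsa by 0.79 (0.0436) and Gla by 1.04 (0.0248), 2 of 11 tested in their list. In this comparison 8.02% of all tested genes passed, higher, and 17.1% in either direction. Cptp, a ceramide 1-phosphate transfer protein, rose by 0.72 (0.0488).

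The 2 lower genes belonged to the 6 tested genes of glycosphingolipid synthesis, beside 9.11% of all tested genes that passed, lower. B4galt6, a lactosylceramide synthase, stood at 1.23 ± 1.11 scaled TPM in KYDS+BGZ_L and 4.04 ± 1.70 in BGZ_L livers (SD, n = 5 each), with a log2 fold change of -1.54 (limma adjusted p = 0.0225). St3gal5, the sialyltransferase that makes the first ganglioside, stood at 3.02 ± 0.36 and 4.80 ± 0.89, with a log2 fold change of -0.58 (0.0393) that turned to 0.18 without scaling. Of these 11 calls, those of Sphk2 and S1pr1 held in all 20 fits that left out 1 library, and in this comparison S1pr1 alone passed with the mitochondrial covariate. Relative to nuclear signal 8 of the 11 were lost, Sphk2 among them, and Gla, S1pr1 and Apom were kept. Without CON 2 and BGZ_L 3 together 7 were lost, and Sphk2, B4galt6, Arsa and S1pr1 were kept. In the fits that left out 1 library the others reached adjusted p values of 0.0633 to 0.141 at most. The library left out was then KYDS+BGZ_L 4 for Ormdl2, B4galt6, St3gal5, Gla, Cptp and Apom, KYDS+BGZ_L 2 for Samd8, BGZ_L 2 for Arsa and BGZ_L 4 for Sgpl1.

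**Figure D5:**
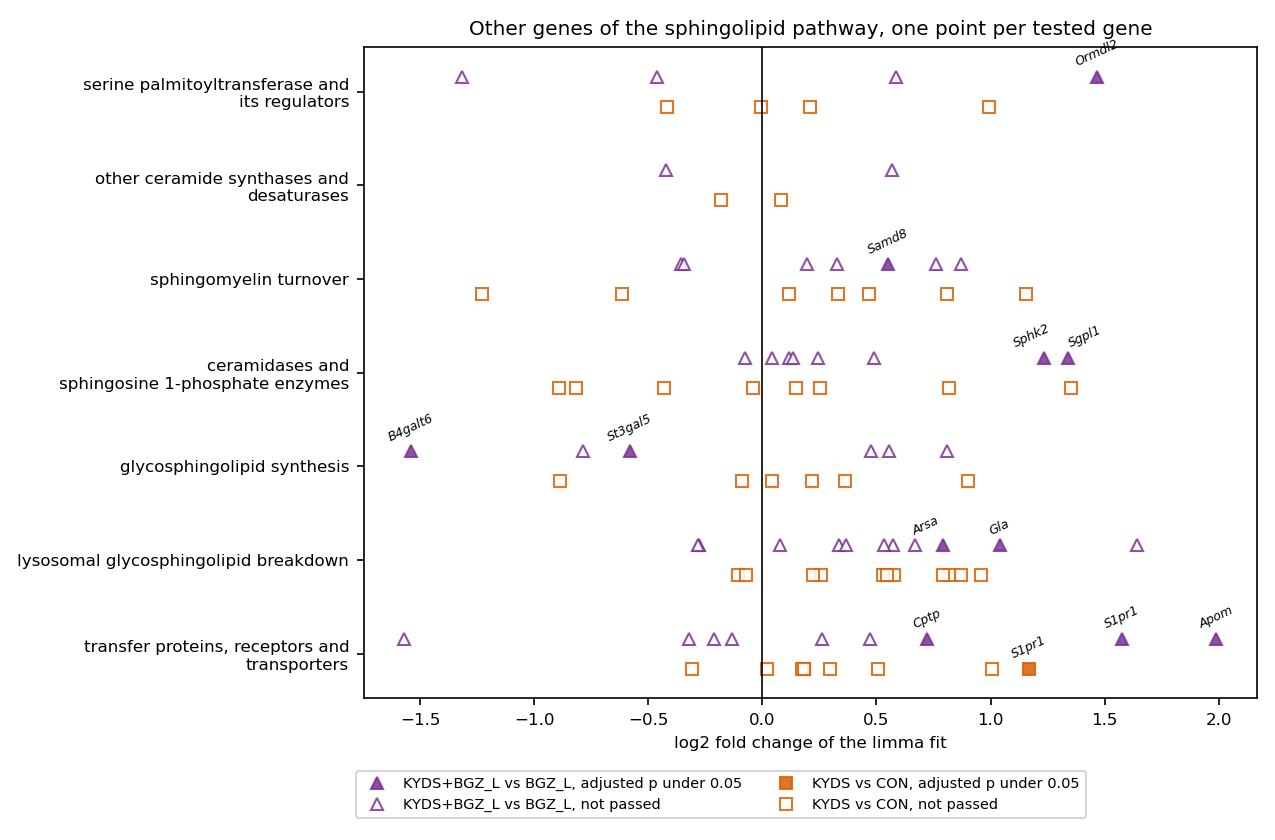
Log2 fold changes of the 47 other tested genes of the pathway by list, for KYDS+BGZ_L against BGZ_L (triangles) and KYDS against CON (squares), filled where the limma adjusted p is under 0.05 and then labelled. The 11 filled triangles run from -1.54 (B4galt6) to 1.99 (Apom), and S1pr1 is the single filled square.

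Members of the set that varied alike within groups were Cers2 with Smpd1 (r = 0.817 over 20 libraries) and Sptlc1 with Cers2 (0.764). Cers6 and Asah1 varied in opposite ways (r = -0.678). Among 10358 other genes the closest in pattern over the 20 libraries was Mogs for Smpd1 (r = 0.971), Rnf139 for Cers2 (0.959), Reep4 for Sptlc1 (0.956), Txn1 for Degs1 (0.934) and Ctu2 for Sgms1 (0.914). The closest gene reached 0.878 for Asah1 (Steap4), 0.850 for Cers6 (Lrp6), 0.844 for Sptlc2 (Lactb2), 0.838 for Cers5 (Tube1) and 0.759 for Ugcg (Arf2). All these values come from libraries that share scaling and mitochondrial share, and they describe likeness only.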

How the data were processed

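Liver RNA of 20 male rats was sequenced, 1 library per rat. Per the labels' protocols, Trizol RNA was cleared of DNA with DNase and TruSeq libraries were read from both ends, of which the authors analysed read 1. No source used here names the aligner, the counter or the annotation. The deposited table holds rat gene identifiers, although the submitters' processing notes name mouse builds (GRCm39, GRCm38 and mm10). The table's name speaks of raw counts, but the deposited values have 2 decimals and sum to 914343 to 983962 per library, so they were read as TPM. The authors' way of computing them is unknown here.

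The members, gene lists, scaling and tests were chosen with earlier results of these data known. Groups and replicate numbers came from the sample titles. The deposited TPM values were scaled by an unweighted trimmed mean of log ratios to the geometric mean library (outer 30% of log ratios and outer 5% of levels dropped on each side). Genes at or above 0.5 in at least 5 libraries, 11860 of 32883, were tested as log2(scaled TPM + 0.5) in limma with a trended and robust prior, 4 group means in 1 model and 16 residual degrees of freedom. Comparisons were two-sided, with Benjamini-Hochberg adjustment over those genes and a threshold of 0.05. KYDS against CON and KYDS+BGZ_L against BGZ_L share no library but share the estimate of spread. Fold changes on this scale understate differences of low genes. The p-values measure the spread between these rats. No library was a copy of another (highest correlation 0.964).

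All members were described, and pathway genes were named where they passed, with Ormdl3 given beside Ormdl2. A further gene of the pathway lists is not reported here and enters none of their counts. Markers of hepatocytes and 7 other liver cell types were summed per library. Other scalings, constants, filters, priors and sets of libraries, the replicate block and a mitochondrial covariate were tried. Tools were R 4.3.3, limma 3.58.1, data.table (version 1.17.8), Python 3.11.15 and matplotlib 3.10.9. The limma step was tested on simulated data.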

Additional observations from a re-analysis of the deposited data

Results flagged for a closer look

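In 3 of the 40 groups of 5 libraries (10 genes in 4 groups) the highest library lay apart from the rest by more than Dixon's 95% limit for its gap over the group's range for 5 values. For normally distributed values chance gives about 2 of 40. The scaled TPM values were used here without logs, so that rate may not apply. Cers2 stood at 43.7 scaled TPM in KYDS 3, where the next library held 28.1 (gap over range 0.846). KYDS 3 also had the lowest mitochondrial share, and without it the rise of Cers2 still passed. Cers5 stood at 1.65 in CON 4, where the next held 0.681 (0.882). Asah1 stood at 2.95 in CON 3, where the next held 1.04 (0.823).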

How the results depend on the processing

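The 10 genes kept 2 calls in KYDS against CON and 4 in KYDS+BGZ_L against BGZ_L, the same genes, with median-ratio scaling, a constant of 0.1 or 1, no filter or a filter at 1, the compared groups only, a plain prior, and without CON 2 and BGZ_L 3. Without these 2 libraries the calls in KYDS against CON were close to the threshold (limma adjusted p = 0.048 for Cers2 and 0.0497 for Smpd1). In KYDS against CON, 4 genes passed without scaling (Sptlc1, Cers2, Cers5 and Smpd1, with a median of all genes at 1.03), 1 relative to nuclear signal (Cers2) and 0 with the mitochondrial covariate. With that covariate 1 passed in KYDS+BGZ_L against KYDS (Degs1). In KYDS+BGZ_L against BGZ_L, Sgms1 was lost without scaling, where Sptlc1 passed, and relative to nuclear signal (-1.09, limma adjusted p = 0.185). Leaving out 1 library gave 1 to 3 calls in KYDS against CON and 4 to 5 in KYDS+BGZ_L against BGZ_L. Sptlc1 was the added gene, without CON 4 and without BGZ_L 1, and Smpd1 was lost without KYDS 3. Of all genes, 290 were higher and 382 lower in KYDS against CON, against 5867 and 66 without scaling and 75 and 17 relative to nuclear signal. For KYDS+BGZ_L against BGZ_L, 951 were higher and 1080 lower, against 1809 and 233 without scaling and 358 and 219 relative to nuclear signal. The total in KYDS against CON was 672, and it was 269 with the compared groups only, 259 without CON 2 and BGZ_L 3, and 197 to 1022 without 1 library. Why these settings differ was not tested.

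The sign of some differences also turned, among them St3gal5, which had passed, and others that had not. Without scaling, KYDS against CON gave 0.64 for Sptlc2, 0.77 for Sgms1, 0.69 for Asah1 and 0.60 for Ugcg, and KYDS+BGZ_L against BGZ_L gave 0.62 for Cers6, 0.18 for Ugcg and 0.18 for St3gal5. It gave -0.12 for Smpd1 in KYDS+BGZ_L against KYDS and -0.45 for the interaction of Cers2. With the covariate Degs1 stood at -0.93 and Ugcg at 0.020 in KYDS against CON, and Cers6 at 0.052 in KYDS+BGZ_L against BGZ_L. Relative to nuclear signal Cers6 stood at 0.0073 there, and without CON 2 and BGZ_L 3 Degs1 stood at -0.025 in KYDS against CON. Leaving out 1 library gave, in KYDS against CON, -0.25 to 0.041 for Sptlc2, -0.32 to 0.46 for Cers6, -0.081 to 0.59 for Degs1, -0.37 to 0.054 for Asah1 and -0.27 to 0.038 for Ugcg. It gave -0.50 to 0.27 for Cers6 in KYDS+BGZ_L against BGZ_L and -0.20 to 0.29 for the interaction of Cers2.

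Ratio calls fell to 0 in KYDS against CON and 0 in KYDS+BGZ_L against BGZ_L with a constant of 0.1. Leaving out 1 library gave 0 to 2 and 0 to 4 calls, and 0 to 2 in KYDS+BGZ_L against KYDS. They were 0 in KYDS against CON and in KYDS+BGZ_L against BGZ_L without any 1 of CON 3, BGZ_L 3 or KYDS 1, 2, 4 and 5. Without KYDS 3 there were 4 in KYDS+BGZ_L against BGZ_L and 2 in KYDS+BGZ_L against KYDS. The replicate numbers showed no sign of pairing the rats, though this check cannot exclude a pairing. Same-numbered libraries of different groups correlated above 0.1 in 7 of 30 cases (range -0.456 to 0.337). The best match of a library bore its number in 2 of 20. With the replicate block 2 and 4 of the 10 genes passed, the same genes, and of the other pathway genes Samd8, St3gal5, Arsa and Cptp no longer did. Depth is unknown, so precision at low values cannot be given.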
